A study of Mus musculus with 96 samples.

Results

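Fibroblasts at 25 to 27 h in serum were compared with starved fibroblasts in 10 of the 95 libraries of a serum time course. The 6 libraries at 25, 26 and 27 h after serum were set against the 4 libraries of starved cells at -1 and 0 h, within each of 2 time courses called Cycle 1 and Cycle 2, and the within-Cycle differences were averaged. Primary embryonic fibroblasts from E13 embryos of CF-1 mice were used throughout, and the labels name no genetic change. All of them were kept for 36 h in medium with 0.5% fetal calf serum. Per the study's methods the -1 and 0 h samples were taken before serum was added to 20%, the latter just before, while the labels put the addition at 0 h itself. The later cells stayed in that serum. Each hour of a Cycle is 1 library of polyA RNA, and the values are the authors' normalized signal per gene, scaled to 10000000 reads a library. Signal is not divided by gene length, so levels are compared only between libraries of 1 gene.

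Fibroblasts deprived of serum leave the cell cycle and enter quiescence, a reversible resting state. In that state E2F target genes are held down by pocket proteins and the MuvB core, together called DREAM, while Cdk inhibitors and FoxO factors are active. Serum growth factors start a wave of immediate early genes such as Fos and Egr1, followed by cyclin D and Myc, the release of E2F factors, DNA replication and mitosis. Cells that stay in serum go on cycling. Resting fibroblasts are also known for making matrix and for responding to interferon and hormones.

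By the whole reads recovered from the values, the 10 libraries held 5680742 to 13072794 reads, with a median of 10234230. The least deep were Cycle 1 at 26 h and Cycle 1 at -1 h. Hours of a Cycle serve as replicates, so every p-value measures the spread between neighbouring hours, and only the 2 Cycles are independent. No cells were kept starved until 27 h, so cycling, the serum itself and time in culture cannot be told apart. In bulk RNA, fewer cells expressing a gene and less RNA per cell cannot be told apart either. Reads of both strands were counted together, so overlapping and antisense genes are not separated.

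Libraries of both groups stood apart. At 0 h, 26 genes with a starved mean of at least 50 were already over 4-fold higher than at -1 h in both Cycles, 13 of them immediate early genes of the list used here. Fos had a signal of 914 at -1 h and 24883 at 0 h of Cycle 1, and 466 and 15148 in Cycle 2. Cycle 2 at 27 h differed from its own 25 and 26 h by over 2-fold in 36 genes upward and 83 downward of 10238 genes with a mean of at least 50, against 5 and 3 for Cycle 1 at 27 h. There Egr1 was 63.6, against 1254 and 1598 in the hours before. Starved libraries of Cycle 2 also had a higher signal of Mki67 and Top2a than those of Cycle 1, as given with these genes.

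Of 15895 genes, 1034 (6.51%) were higher at 25 to 27 h than in starved cells and 2987 (18.8%) were lower. A gene was called with an adjusted p under 0.05 in limma and a log2 difference above 1 in size on log2(signal + 1). Every later library lay past every starved library of its Cycle in 3163 genes upward (19.9%) and 4721 downward (29.7%), among them 924 and 2480 of the called genes. At the extremes there were 43 called genes over 8-fold higher and 291 over 8-fold lower. In 430 of the higher and 1827 of the lower genes the difference passed 1 in each Cycle on its own. With 1 difference per Cycle as the only replicate, 87 genes were higher and 483 lower. The median log2 difference of all genes was -0.17 and moved to -0.06 with TMM rescaling of the libraries, and the share of higher genes among the called moved from 25.7% to 33.0%.

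The 2 Cycles differed in how far they moved. Tested alone, Cycle 1 had 1789 higher (11.3%) and 3650 lower genes (23%), and Cycle 2 had 469 (2.95%) and 1611 (10.1%). The change itself differed between Cycles in 1804 genes (11.3%), of which 743 had the higher log2 difference in Cycle 1 and 1061 in Cycle 2. With the -1 h libraries as the only starved samples each Cycle keeps a single starved library, so the count of that setting is not compared here.

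**Figure D1:**
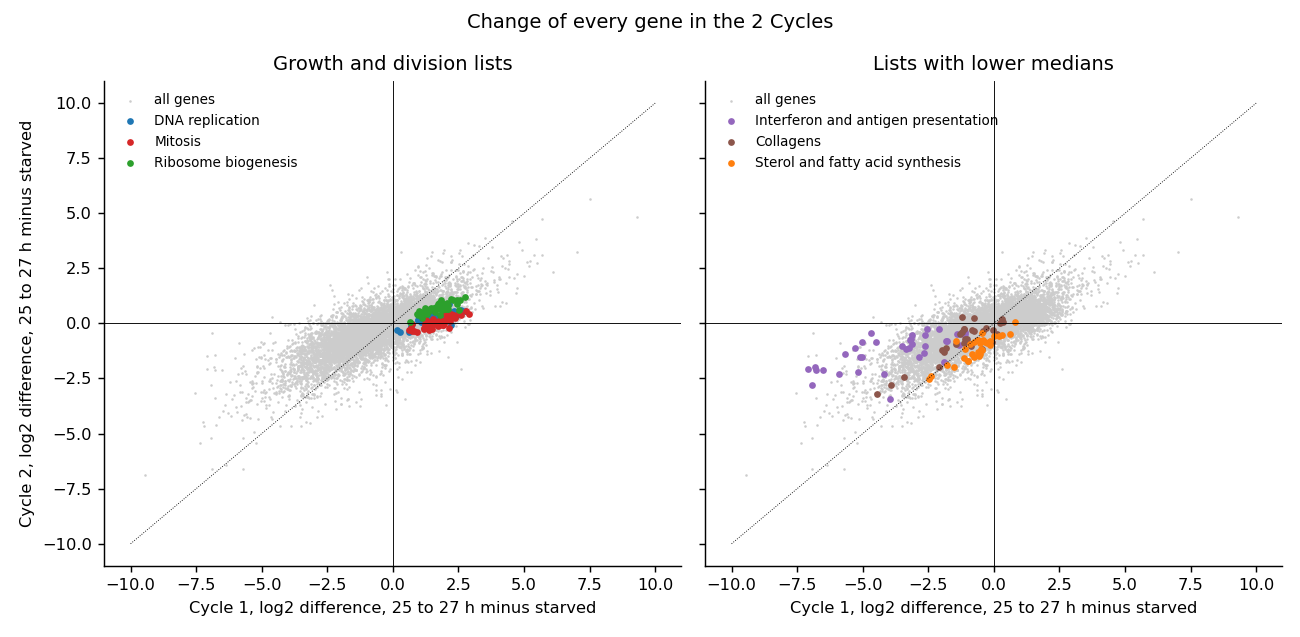
Each point is a gene, with its log2 difference between 25 to 27 h and starved cells in Cycle 1 on the x axis and in Cycle 2 on the y axis, and the dotted diagonal marks equal change. Mitosis genes (red) lie to the right near the zero line of Cycle 2, with medians of 1.74 and 0.05, while sterol genes (orange) have medians of -0.58 and -0.97.

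Among the 12 largest rises were secreted proteins, transcription factors and genes of the skin barrier. U90926 (NCBIM37 chr5:92638922-92644434), listed there as protein coding, had a signal of 1.50 and 2.73 in Cycle 1 and 43.9 and 37.9 in Cycle 2 in starved cells, and between 1095 and 2180 (median 1510) at 25 to 27 h. All 6 later libraries lay above all 4 starved ones. The log2 difference was 7.08 ± 0.14 (SE), adjusted p = 7.53e-08. Lce1g (chr3:92554070-92556260), a late cornified envelope gene of skin, was 0 and 0 in Cycle 1 and 3.82 and 1.65 in Cycle 2, and between 163 and 222 (median 173) later. It was listed at 0 in both starved libraries of Cycle 1, so its log2 difference of 6.58 ± 0.17 (SE), adjusted p = 2.12e-07 rests in part on the added 1.

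Cck (chr9:121398943-121404807), a peptide hormone precursor, was 3.01 and 2.73 in Cycle 1 and 25.8 and 28.8 in Cycle 2 when starved and between 254 and 534 (median 383) later (5.14 ± 0.07 (SE), adjusted p = 1.97e-08). Other leading rises were Coch, a secreted matrix protein, by 4.64, Dlx2, a homeobox factor, by 4.60, and Sp7, the osteoblast factor osterix, by 4.40. Ifi27l2b rose by 4.25, the myosin light chain kinase gene Mylk2 by 4.23, the cornified envelope gene Sprr2k by 4.22, Rassf6 by 4.03 and the lectin Siglecg by 3.95. Dlx2 and Sp7 had starved means of 5.95 and 4.50 and later means of 156 and 90.6. The choice of the 12 largest rises, and of the 12 largest falls, required every later library to lie past the starved libraries of its Cycle.

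The largest falls reached further. Agtr2 (chrX:21061670-21066290), the type 2 receptor of angiotensin, had a signal of 10118 and 9291 in Cycle 1 and 1136 and 950.1 in Cycle 2 in starved cells and between 5.87 and 20.5 (median 10.3) later. The log2 difference was -8.16 ± 0.25 (SE), adjusted p = 3.24e-07, and the fall was larger in Cycle 1, where the starved level was higher (difference between Cycles -2.55 ± 0.51 (SE), adjusted p = 0.0127). Chodl (chr16:78931193-78951978), a membrane lectin, is the contrasting case, with near values in both Cycles. It was 433 and 430.4 in Cycle 1 and 362 and 346 in Cycle 2 when starved and between 1.95 and 5.4 (median 3.77) later, with log2 differences of -6.36 and -6.42. Adamts15, a secreted protease, fell by 6.76 on the log2 scale, Olfml1 by 6.39, the sodium channel gene Scn7a by 6.15 and the cytokine gene Il33 by 6.08.

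Kera, a matrix proteoglycan, fell by 5.93, the metalloreductase gene Steap4 by 5.85, the cadherin Cdh8 by 5.68, Angptl1 by 5.44 and Gm4951 by 5.37. Fos was among the largest falls at -5.47 ± 1.32 (SE), adjusted p = 0.00737, and its 0 h libraries were the high ones. Against -1 h alone its log2 difference was -3.02 and was not called.

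**Figure D2:**
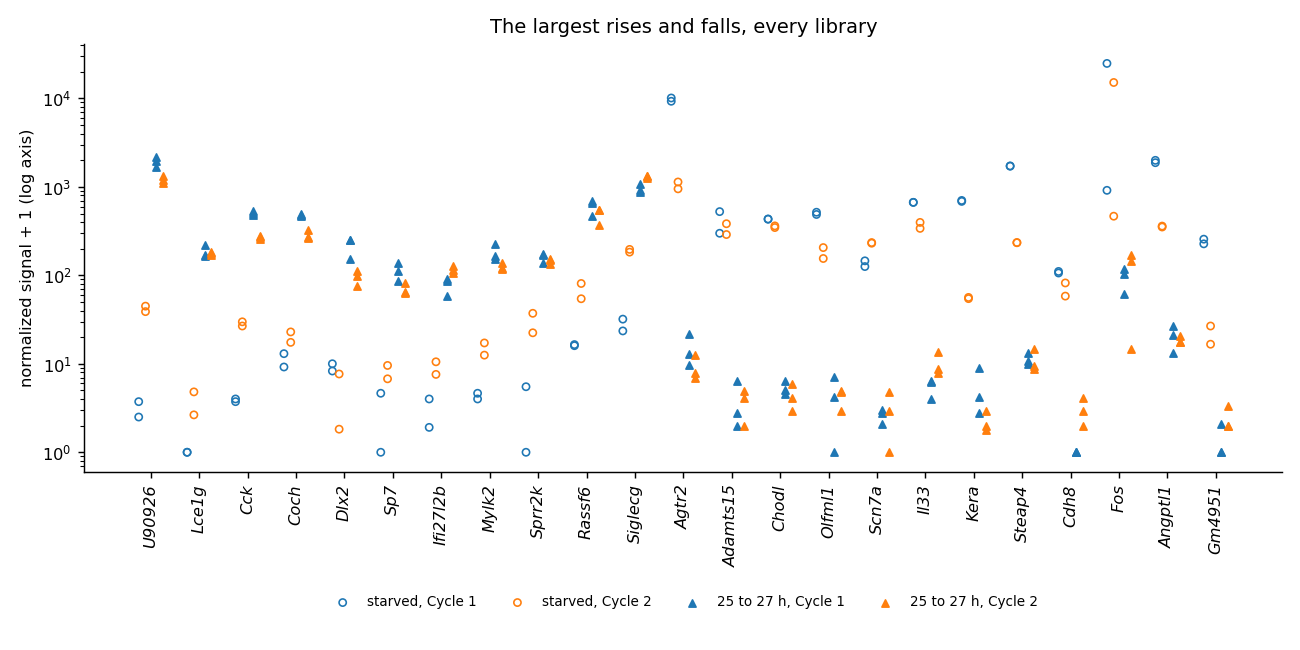
Every library is a point, with normalized signal + 1 on a log axis, open circles for starved cells and triangles for 25 to 27 h, blue for Cycle 1 and orange for Cycle 2. For 11 of the 12 largest rises, those described, the triangles lie above the circles of the same colour and for the 12 largest falls below them, and the 2 circles of Fos in each Cycle lie over 10-fold apart.

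Genes that copy DNA and supply its building blocks were called higher or not at all, and mainly in Cycle 1. Of 42 DNA replication genes 16 rose (38.1%, beside 6.51% of all genes), with a list median of 0.89 beside -0.17 for all genes. Of 19 genes of deoxynucleotide synthesis 12 rose (63.2%), with a median of 1.07. Cdc6 (chr11:98769115-98785254), which loads the MCM helicase on origins, was 54.1 and 61.1 in Cycle 1 and 197 and 178 in Cycle 2 in starved cells and between 270.4 and 463 (median 308) later, for a log2 difference of 1.64 ± 0.10 (SE), adjusted p = 7.61e-06. Mcm10, Cdt1 and Chaf1a, which act at origins and in chromatin assembly behind the fork, rose by 1.61, 1.51 and 1.44. Rrm2 (chr12:25393106-25399011), the regulated subunit of ribonucleotide reductase, had the largest rise of both lists. It was 373 and 327 in Cycle 1 and 1425 and 1424 in Cycle 2 when starved and between 3449 and 5207 (median 3607) later, a log2 difference of 2.50 ± 0.11 (SE), adjusted p = 1.50e-06, and it was called in each Cycle alone (3.71 and 1.30). Thymidine kinase Tk1 rose by 1.38, Shmt1 of the folate cycle by 1.51 and Umps of pyrimidine synthesis by 1.28.

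With 1 difference per Cycle limma called 0 genes of either list, and 8 and 9 were higher at an unadjusted p under 0.05, with no other tool run. Within Cycle 1 35 of 42 replication genes and 16 of 19 nucleotide genes were called higher. Within Cycle 2 limma called 0 and 1, although 20 replication genes were higher at an unadjusted p under 0.05 and 2 lower at any size. No other tool was run within a Cycle. The list medians were 1.50 and 0.24 for replication in the 2 Cycles, and the change differed between Cycles in 30 of its 42 genes, against 11.3% of all genes.

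Mitotic genes were called in Cycle 1 alone far more often than in Cycle 2 alone. Of 54 measured, 17 rose (31.5%, beside 6.51% of all genes), and 26 with TMM rescaling. The list median was 0.87, and the change differed between Cycles in 51. With 1 difference per Cycle limma called 0, and 2 were higher at an unadjusted p under 0.05. Within Cycle 1 48 were called higher and within Cycle 2 limma called 0, with 11 higher and 8 lower at an unadjusted p under 0.05. Mki67 (chr7:142881471-142908062), the antigen Ki-67 of cycling cells, had a signal of 1088 and 1205 in Cycle 1 and 3465 and 3310 in Cycle 2 in starved cells and between 1968 and 2801 (median 2325) later. Its starved libraries of Cycle 2 were thus above all 6 later libraries, and the log2 difference was 0.81 in Cycle 1 and -0.35 in Cycle 2, a difference of 1.16 ± 0.13 (SE), adjusted p = 0.00163. Top2a, the topoisomerase that untangles chromosomes, had 1324 and 1305 in Cycle 1 and 4485 and 4166 in Cycle 2 when starved and between 3205 and 4475 (median 3625) later, and there too the starved libraries of Cycle 2 lay above the later ones of that Cycle. Neither gene was called over both Cycles (0.23 and 0.62).

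Cyclin A2, Ccna2, had 911 and 683 in Cycle 1 and 2687 and 2307 in Cycle 2 when starved and between 2415 and 2964 (median 2671) later, so that in Cycle 2 the groups overlapped, and the log2 difference of 0.91 missed the limit of 1. It passed with TMM rescaling (1.03) and without the -1 h library of Cycle 1 (1.02) or the 2 least deep libraries (1.06). Cyclin B1, Ccnb1, was 109.7 and 116 in Cycle 1 and 413 and 416 in Cycle 2 when starved and between 410.2 and 662 (median 535) later. The log2 difference was 1.31 ± 0.13 (SE), adjusted p = 8.51e-05, with 2.21 in Cycle 1 and 0.41 in Cycle 2. Birc5, the survivin of the chromosomal passenger complex, rose by 1.67, the APC/C activator Cdc20 by 1.66, its ubiquitin-conjugating enzyme Ube2c by 1.50 and the kinase Aurka by 1.50. Foxm1, the factor that drives many of these genes, rose by 1.21.

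Upstream of replication 6 of 20 G1 cyclins, E2F factors and partners rose (30%, beside 6.51% of all genes), with a median of 0.48. The list medians of the 2 Cycles were 0.85 and 0.19. Within Cycle 1 9 were called higher. Within Cycle 2 limma called 0 higher and 1 lower, with 6 higher and 1 lower at an unadjusted p under 0.05. Cyclin D1, Ccnd1 (chr7:152115836-152125774), was 681 and 662 in Cycle 1 and 1037 and 1015 in Cycle 2 when starved. At 25 to 27 h it was 3318, 3457 and 3310 in Cycle 1 but 1518, 1411 and 1419 in Cycle 2, and the log2 difference over both was 1.41 ± 0.06 (SE), adjusted p = 1.14e-06. Cyclin E1, Ccne1, rose by 1.31, Mybl2, which joins MuvB in cycling cells, by 1.62, and the repressor E2f7 by 1.46. E2f1 had a log2 difference of 0.61 and was not called, although every later library lay above the starved libraries of its Cycle. Myc was 404 and 1132 in Cycle 1 and 678 and 1337 in Cycle 2 when starved and between 301 and 1593 (median 1377) later, its lowest value being that of Cycle 2 at 27 h, and its log2 difference of 0.39 ± 0.52 (SE), adjusted p = 0.539 was within the spread.

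**Figure D3:**
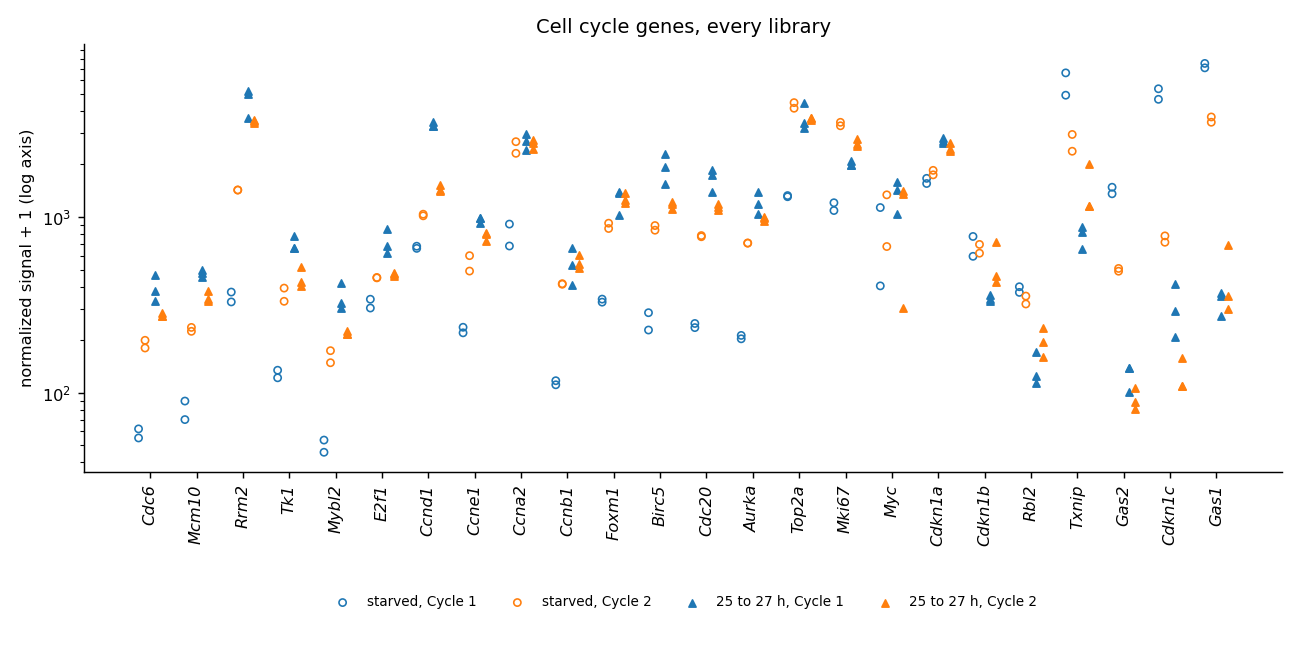
Normalized signal + 1 of 24 cell cycle genes in every library on a log axis, with open circles for starved cells, triangles for 25 to 27 h, blue for Cycle 1 and orange for Cycle 2. From Cdc6 to Aurka the blue circles lie lowest, while the orange circles of Mki67 and Top2a, at 3310 or more, lie above the orange triangles.

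Promoters of 6 of these genes are shown because members of both lists rose together, Orc1 of the origin recognition complex by 1.36 and the mitotic kinase Cdk1 by 1.32 besides those named. Stretches of 150 bases that end just before the start site, from RefSeq on GRCm38.p6, are printed 5′ to 3′ in the direction of the gene, with matches in capitals. The motifs were an E2F site (TTTCCCGC, TTTCGCGC, TTTGCCGC or TTTGGCGC), the cell cycle homology region CHR (TTTGAA or TTTAAA) and the CCAAT box, on both strands, where TTTAAA reads alike and a base may belong to several matches. The 6 genes were chosen after their matches were seen. Positions are chr11:98908001-98908150, plus strand for Cdc6, chr4:108579304-108579453, plus strand for Orc1, chr10:69352913-69353062, minus strand for Cdk1, chr13:100786487-100786636, minus strand for Ccnb1, chr4:118437344-118437493, minus strand for Cdc20 and chr2:164769779-164769928, plus strand for Ube2c.
Cdc6: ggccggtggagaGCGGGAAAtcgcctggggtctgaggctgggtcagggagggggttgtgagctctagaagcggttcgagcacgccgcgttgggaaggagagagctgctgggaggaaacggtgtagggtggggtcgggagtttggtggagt
Orc1: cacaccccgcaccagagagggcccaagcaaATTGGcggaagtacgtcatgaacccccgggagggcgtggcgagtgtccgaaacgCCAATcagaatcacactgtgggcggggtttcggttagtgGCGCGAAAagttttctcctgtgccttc
Cdk1: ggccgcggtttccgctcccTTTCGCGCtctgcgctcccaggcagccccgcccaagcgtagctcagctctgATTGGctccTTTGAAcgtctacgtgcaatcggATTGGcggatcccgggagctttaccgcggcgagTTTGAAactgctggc
Ccnb1: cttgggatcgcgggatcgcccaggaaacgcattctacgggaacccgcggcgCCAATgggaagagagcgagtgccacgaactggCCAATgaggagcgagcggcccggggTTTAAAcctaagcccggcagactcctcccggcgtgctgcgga
Cdc20: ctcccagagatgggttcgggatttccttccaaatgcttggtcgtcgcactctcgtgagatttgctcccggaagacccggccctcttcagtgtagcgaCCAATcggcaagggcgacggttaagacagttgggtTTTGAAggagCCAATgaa
Ube2c: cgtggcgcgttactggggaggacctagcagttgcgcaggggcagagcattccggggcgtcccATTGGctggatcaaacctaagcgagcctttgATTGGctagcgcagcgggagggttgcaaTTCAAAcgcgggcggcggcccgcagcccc

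Each window searched held 250 bases before and 50 after the start, and 14629 windows of 11510 measured genes were searched. The E2F site was in 7 of 16 windows of replication genes that rose and in 7 of 23 of those not called (43.8% and 30.4%), beside 3.55% of all windows. CHR was in 15 of 16 windows of mitosis genes that rose and in 21 of 30 of those not called (93.8% and 70%), beside 19.8% of all. The CCAAT box was in 12 of 16 and 21 of 30 of the same mitosis windows (75% and 70%), beside 36.9%. The forkhead site TGTTTAC was in 2 of 9 windows of FoxO list genes that fell and in 1 of 10 of those not called (22.2% and 10%), beside 2.45% of all. The sterol element TCACNCCAC was in 0 of 8 windows of sterol genes that fell, beside 1.19%. Matches are a description of letters, and called and uncalled members of a list both held them.

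The called genes that hold the cycle back were all lower at 25 to 27 h. Of 29 genes of cell cycle restraint 11 fell (37.9%, beside 18.8% of all genes), with a list median of -0.61. Against the -1 h libraries alone the list median was -0.33. Within Cycle 2 alone 3 were called lower, which at 10.3% is near the 10.1% of all genes. Gas1 (chr13:60275766-60278726), a growth arrest gene of the cell membrane, was 7081 and 7503 in Cycle 1 and 3467 and 3716 in Cycle 2 in starved cells and between 273 and 696 (median 354) later. The highest later value was that of Cycle 2 at 27 h, and the log2 difference was -3.78 ± 0.23 (SE), adjusted p = 7.00e-06. The Cdk inhibitor gene Cdkn1c (chr7:150644255-150646955), p57, was 5381 and 4685 in Cycle 1 and 717 and 780.0 in Cycle 2 when starved and between 107 and 412 (median 181) later (-3.36 ± 0.20 (SE), adjusted p = 6.59e-06). Gas2 fell by 2.98, the glucose uptake inhibitor Txnip by 1.90 and the pocket protein gene Rbl2, p130 of DREAM, by 1.16. The Cdk inhibitors p27 and p21 did not pass the limit. Cdkn1b, p27, had 774 and 596 in Cycle 1 and 697 and 621 in Cycle 2 when starved and between 333 and 718 (median 394) later (-0.66), and Cdkn1a, p21, had a difference of 0.61.

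FoxO factors are switched off by growth factor signalling. Of 22 genes of the factors and their known targets 11 fell (50%, beside 18.8% of all genes). In the same list 2 rose (9.09%, beside 6.51% of all genes), and the median was -0.96. Sesn3, a stress-induced inhibitor of mTORC1 signalling, fell by 2.99, Gadd45a, a growth arrest and DNA damage gene, by 2.44, the Krüppel-like factor Klf15 by 2.16 and the muscle ubiquitin ligase Trim63 by 3.32. Against the list Cited2, a CBP-binding regulator, rose by 1.38 and the ubiquitin ligase Fbxo32 by 1.01. Fbxo32 had 96.2 and 82.1 in Cycle 1 and 98.3 and 95.6 in Cycle 2 when starved and between 112 and 458 (median 179) later, its highest value again at 27 h of Cycle 2, and without that library the log2 difference was 0.84. It lost its call there, with pseudocount 5, against -1 h alone (0.94) and in 3 other leave-outs.

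Genes of the nucleolus that build ribosomes rose in most cases. Of 41 measured 28 rose (68.3%, beside 6.51% of all genes) and all 41 had a difference above 0. The median was 1.24, with 1.76 in Cycle 1 and 0.66 in Cycle 2. Limma called 0 of them with 1 difference per Cycle, and 31 were higher at an unadjusted p under 0.05. Grwd1, a ribosome assembly factor, was 199.9 and 164 in Cycle 1 and 303 and 283 in Cycle 2 in starved cells and between 668 and 1512 (median 892) later, for a log2 difference of 1.98 ± 0.11 (SE), adjusted p = 5.16e-06. Nhp2 of the pseudouridine-forming H/ACA particles rose by 1.80, Rrp9 of the U3 particle by 1.76 and the rRNA methyltransferase Nop2 by 1.68. Of 50 cytosolic ribosomal proteins 5 were called higher (10%, beside 6.51% of all genes) and the median was 0.39. The 4 called genes named by size, Rpl35, Rpl27, Rpl38 and Rps28, had means of at most 49.5 at 25 to 27 h, and 8 of the 50 had means under 10, and with a mean of at least 10 required 2 were called. Ribosomal protein genes have many near-identical copies in the genome, so their counts are uncertain.

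Of 35 chaperones 5 were higher (14.3%, beside 6.51% of all genes), and the list median was 0.70. The medians of the 2 Cycles were 1.04 and 0.20, and the change differed between Cycles in 9. Within Cycle 1 19 were called higher. Within Cycle 2 1 was, which at 2.86% is near the 2.95% of all genes. The small heat shock protein Hspb1 rose by 1.83, the mitochondrial chaperonin Hspd1 by 1.21, and Cct7 and Cct3 of the TRiC chaperonin by 1.13 and 1.03. In amino acid supply 1 of 29 genes rose (3.45%) and 2 fell (6.9%), both under the 6.51% and 18.8% of all genes. The serine synthesis enzyme Phgdh rose by 1.21, while Trib3 and Ddit3, stress targets of Atf4, fell by 1.88 and 1.28. The median of the 29 genes was 0.36. Of 45 subunits of oxidative phosphorylation limma called 0, and edgeR also called 0. At an unadjusted p under 0.05 29 were higher, and the median was 0.28.

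The called genes of lipid synthesis were all lower at 25 to 27 h, with list medians of -0.58 in Cycle 1 and -0.97 in Cycle 2. Of 31 genes of sterol and fatty acid synthesis 12 fell (38.7%, beside 18.8% of all genes), with a median of -0.84. Within Cycle 1 and Cycle 2, 6 and 14 were called lower, where 23% and 10.1% of all genes were. Scd2 (chr19:44368166-44381354), a stearoyl-CoA desaturase, was 9932 and 9298 in Cycle 1 and 14040 and 13128 in Cycle 2 in starved cells and between 1468 and 3312 (median 2245) later. The log2 differences of the Cycles were -2.40 and -2.41, and over both the log2 difference was -2.40 ± 0.17 (SE), adjusted p = 1.26e-05. Tm7sf2, a sterol reductase, fell by 2.49 and the acetyl-CoA synthetase Acss2 by 1.84. The isoprenoid isomerase gene Idi1, with starved values of at most 27.2, fell by 1.75. The change differed between Cycles in 1 of these genes.

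Of 29 glycolysis and hypoxia genes 2 were higher (6.9%) and 6 lower (20.7%), close to the 6.51% and 18.8% of all genes. Their median was -0.08 and turned to 0.03 with TMM rescaling, so no direction is given for the list. The change differed between Cycles in 19 of them. Bnip3, a hypoxia target that takes part in mitophagy, was 117 and 108 in Cycle 1 and 639 and 586 in Cycle 2 when starved and between 22.9 and 62.7 (median 51.4) later, so that starved cells of Cycle 2 held the highest level, and it fell by 2.48 over both. Pdk1, a kinase that inhibits pyruvate dehydrogenase, fell by 3.12, Aldoc by 2.44 and the carbonic anhydrase Car9 by 2.43. The glycolytic enzymes Eno1 and Pkm rose by 1.17 and 1.11, and in Eno1 the rise was 2.31 in Cycle 1 against 0.03 in Cycle 2.

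Of 47 lysosome and autophagy genes 10 fell and the others were not called (median -0.69). Their share of 21.3% is near the 18.8% of all genes, and with TMM rescaling 7 were called lower. Limma called 0 with 1 difference per Cycle, and 15 were lower at an unadjusted p under 0.05. The lysosomal proteases Ctso and Ctsf fell by 2.60 and 1.50 and Bnip3l, a mitophagy receptor, by 1.42. The falls of Ctso and Ctsf were larger in Cycle 1.

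Most matrix genes that were called fell and a smaller set rose, as among all called genes, of which 25.7% were higher. Of 30 collagens and collagen-modifying enzymes 9 fell (30%, beside 18.8% of all genes, median -0.75). Of 40 matrix glycoproteins and proteoglycans 20 fell (50%) and 5 rose (12.5%, beside 6.51% of all genes), with a median of -1.10. Col3a1 (chr1:45368383-45406551), the fibrillar collagen of loose connective tissue, was 165046 and 166975 in Cycle 1 and 91707 and 94055 in Cycle 2 in starved cells and between 10238 and 13698 (median 12086) later. The groups did not overlap in either Cycle, and the log2 difference was -3.37 ± 0.06 (SE), adjusted p = 6.94e-08. Col14a1 and Col11a1 fell by 3.84 and 2.92, and the collagen lysyl hydroxylase Plod2 by 2.02. Elastin, Eln (chr5:135179651-135223111), was 9059 and 8418 in Cycle 1 and 6544 and 6923 in Cycle 2 when starved and between 239 and 547 (median 339) later (-4.49 ± 0.12 (SE), adjusted p = 2.38e-07). The small leucine-rich proteoglycans Ogn, Aspn and Lum fell by 4.06, 3.67 and 3.65.

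The matrix genes that rose were the 5 that follow. Cd44, the hyaluronan receptor, had 893 and 916 in Cycle 1 and 2970 and 2851 in Cycle 2 when starved and between 5660 and 7979 (median 7465) later (2.13 ± 0.09 (SE), adjusted p = 1.19e-06). The hyaluronan synthase Has2 rose by 2.06, tenascin C, Tnc, by 1.51, thrombospondin Thbs1 by 1.39 and Ltbp1, which binds latent TGF-beta, by 1.27. Among 29 matrix proteases and inhibitors 14 fell (48.3%, beside 18.8% of all genes) and 5 rose (17.2%, beside 6.51%). Among those that rose were the urokinase receptor Plaur by 3.41, the inhibitor Serpinb2 by 3.29, the protease Mmp10 by 2.26 and the inhibitor Timp1 by 1.86. For Plaur the signal was 99.2 and 103 in Cycle 1 and 248 and 265 in Cycle 2 when starved and between 1097 and 2282 (median 1780) later.

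Contractile and cytoskeletal genes, many of them targets of Srf and Yap, had the highest median of the 24 lists that are not markers. Of 28 genes 20 rose (71.4%, beside 6.51% of all genes), with a median of 1.47. Within Cycle 2 alone 12 were called higher (42.9%, beside 2.95% of all genes). With 1 difference per Cycle limma called 0, and 22 were higher at an unadjusted p under 0.05. Cnn1 (chr9:21903725-21914074), the smooth muscle calponin, was 422 and 402 in Cycle 1 and 1258 and 1225 in Cycle 2 in starved cells and between 4086 and 5465 (median 4811) later, with a log2 difference of 2.72 ± 0.06 (SE), adjusted p = 1.34e-07. Ctgf was 1715 and 2530 in Cycle 1 and 8247 and 9105 in Cycle 2 when starved and between 11417 and 45540 (median 33748) later. Its lowest later value, at 27 h of Cycle 2, still lay above both starved libraries of that Cycle, and the log2 difference was 2.85 ± 0.39 (SE), adjusted p = 4.26e-04. Ankrd1, a target of Yap, rose by 3.25 and the smooth muscle actin Actg2 by 2.30.

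**Figure D4:**
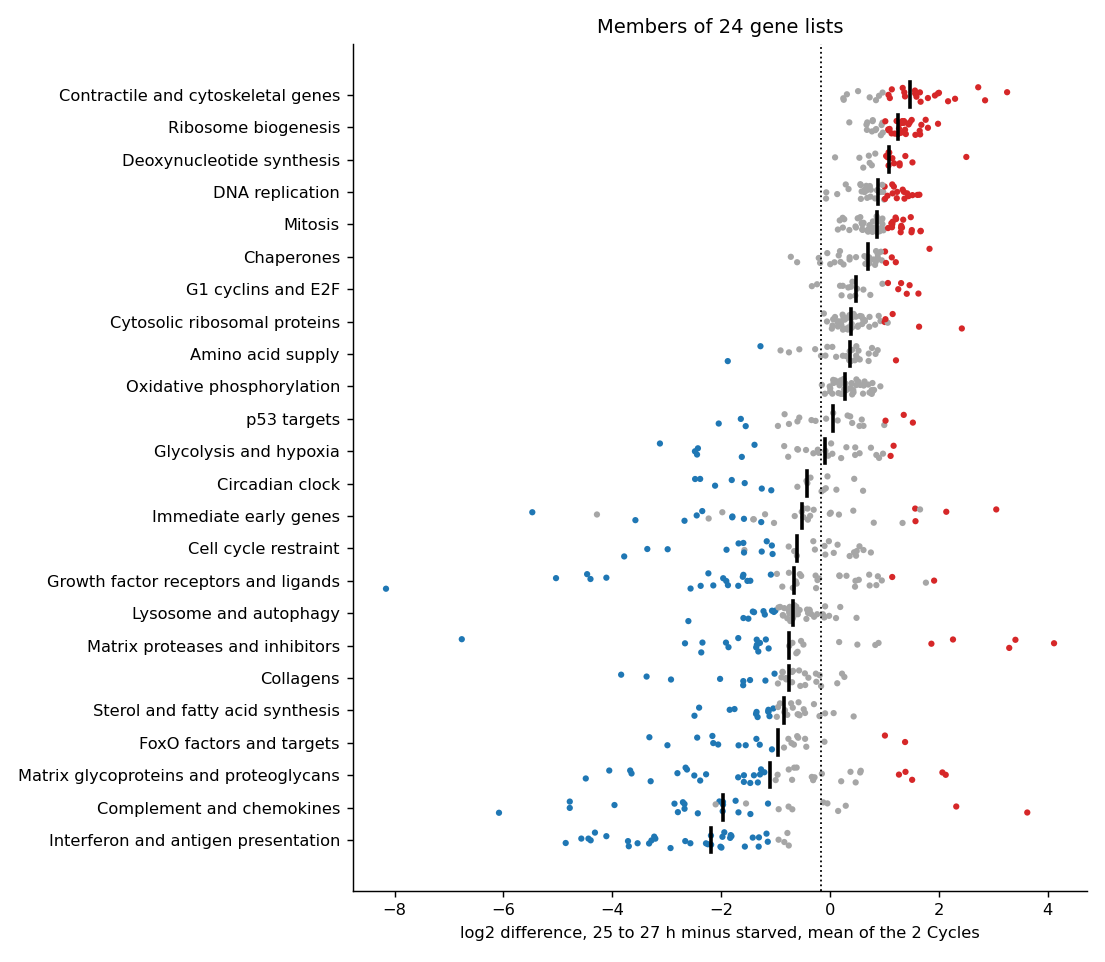
Each point is a measured gene of one of 24 lists, placed by its log2 difference between 25 to 27 h and starved cells over both Cycles, red where called higher and blue where called lower, with a black bar at the list median and a dotted line at -0.17, the median of all genes. The medians run from -2.19 for interferon and antigen presentation to 1.47 for contractile and cytoskeletal genes.

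Growth factor receptors, ligands and binding proteins fell in 18 of 44 genes (40.9%, beside 18.8% of all genes) and rose in 2 (4.55%, beside 6.51%). Their median was -0.66. Members of the insulin-like growth factor axis were among the largest falls of the list. Igf1 (chr10:87321010-87399792) was 2465 and 2490 in Cycle 1 and 1305 and 1121 in Cycle 2 in starved cells and between 47.2 and 114 (median 86.0) later (-4.40 ± 0.18 (SE), adjusted p = 1.10e-06). Its binding protein Igfbp3 had starved values of 16497 and 15476 in Cycle 1 and 16909 and 16963 in Cycle 2, and between 593 and 929 (median 752) later, with log2 differences of -4.59 and -4.33 in the Cycles. Igfbp5 fell by 5.03. The 2 that rose were Hbegf, a ligand of the EGF receptor, by 1.91 and Tgfb3 by 1.14, Hbegf with its lowest later value, 461, at 27 h of Cycle 2, under the 738 of the 0 h library.

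Interferon-stimulated and antigen presentation genes were lower in most cases. Of 37 measured 33 fell (89.2%, beside 18.8% of all genes), with a median of -2.19, and the change differed between Cycles in 29. Ifit1 (chr19:34715361-34724499), an antiviral RNA-binding protein, was 1434 and 1458 in Cycle 1 and 133 and 118 in Cycle 2 in starved cells and between 6.48 and 46.8 (median 20.1) later. The later levels of the Cycles were thus nearer to each other than the starved ones, and the log2 differences were -6.81 and -1.99, a difference of -4.82 ± 0.67 (SE), adjusted p = 0.0035. The antiviral GTPase Mx2 was 389 and 408 in Cycle 1 and 46.7 and 37.9 in Cycle 2 when starved and between 1.76 and 14.6 (median 4.52) later (-7.07 and -2.07). Gbp6, Ifi44 and the RNA helicase Ddx60 fell by 4.86, 4.44 and 4.10. Within Cycle 2 alone 16 of the 37 were called lower, and with 1 difference per Cycle 1.

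Complement and chemokine genes had list medians of -1.88 and -1.78 in the Cycles. Over both Cycles the median was -1.97, and against the -1 h libraries alone it was -1.31, so its size depends on the starved library chosen. Of 29 genes 18 fell (62.1%, beside 18.8% of all genes), 10 with 1 difference per Cycle, and 2 rose (6.9%, beside 6.51%). Beside Il33, the chemokines Ccl11 and Cxcl10 fell by 4.78 and 4.78. The 2 that rose encode cytokines. Il11 had 28.6 and 12.8 in Cycle 1 and 30.5 and 36.3 in Cycle 2 when starved and between 109 and 456 (median 379) later (3.62 ± 0.38 (SE), adjusted p = 9.84e-05), and Csf1, the macrophage growth factor, rose by 2.32.

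Immediate early genes gave a result that depends on the starved library chosen. Of 35 genes 9 were called lower (25.7%, beside 18.8% of all genes) and 4 higher (11.4%, beside 6.51%), with a median of -0.52. Against the -1 h libraries alone 1 was lower and 7 were higher, and the median was 0.21. Without Cycle 2 at 27 h 7 were lower and 7 higher, and edgeR called 16 lower. Egr1 was 3404 and 28363 in Cycle 1 and 1760 and 18343 in Cycle 2 in starved cells and between 63.6 and 1598 (median 832) later, lowest at 27 h of Cycle 2, and its log2 difference was -3.58 ± 1.13 (SE), adjusted p = 0.0244. It was not called without the 0 h library of Cycle 1 (-2.81), without that of Cycle 2 (-2.73) or against -1 h alone (-1.97). Zfp36, which destabilizes mRNA, had -2.67 and was near the limit of p, losing its call without either 0 h library and without any of 4 later libraries, and it was -0.91 against -1 h alone. The genes that rose were Fosl1, the AP-1 member Fra-1, by 3.05, the phosphatases Dusp4 and Dusp10 by 2.14 and 1.56, and the small Maf factor Maff by 1.57. Fosl1 was 22.5 and 82.1 in Cycle 1 and 142 and 224 in Cycle 2 when starved and between 220.2 and 1310 (median 869) later, and at 27 h of Cycle 2 it was under the starved 0 h value of that Cycle.

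Of 18 circadian clock genes 7 fell (38.9%, beside 18.8% of all genes, median -0.42). Among them Rora, a nuclear receptor of the clock, fell by 2.48, the output factor Hlf by 2.39 and Npas2, a partner of Bmal1, by 1.81. These 3 were low, with starved means from 21.0 to 48.6. Of 23 p53 targets 3 rose and 3 fell, each 13% of the list beside 6.51% and 18.8% of all genes, with a median of 0.06. Trp53inp1, Fas and Sesn1 fell by 2.04, 1.64 and 1.55, and Gtse1, a mitotic protein that binds p53, rose by 1.52.

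The state at 25 to 27 h was also set against the first hours in serum, 10 libraries at 1, 1.5, 2, 2.5 and 3 h. By the same limits 1662 genes (10.5%) were higher and 2477 (15.6%) were lower at 25 to 27 h. Since the same 6 later libraries enter, values are given side by side. For mitosis 53 of 54 genes were called higher than at 1 to 3 h, with a median of 1.76, where against starved cells 17 were. In Cycle 2 Top2a had a mean of 4326 when starved, 2766 at 1 to 3 h, 1599 at 4 to 10 h and 3640 at 25 to 27 h. In Cycle 1 the same means were 1314, 674, 496 and 3705. In both Cycles Top2a was thus lowest of these windows at 4 to 10 h.

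Immediate early genes were lower than at 1 to 3 h in 30 of 35, where 15.6% of all genes were. Ribosome biogenesis genes were higher than at 1 to 3 h in 4 of 41, near the 10.5% of all genes. Against starved cells 28 of the 41 were higher, beside 6.51% of all genes. Myc had a mean of 3528 at 1 to 3 h and 1183 at 25 to 27 h. The water channel gene Aqp3 was 653 ± 808 (SD, n = 10) at 1 to 3 h, 1.54 at 25 to 27 h and 2.91 in starved cells. Ifi205, an interferon-inducible gene, was 381, 4.29 and 18.9 in the same order. U90926, Coch, Siglecg and Sp7 had means of 68.5, 9.15, 79.6 and 5.23 in those hours.

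Against the 10 libraries at 19, 20, 21, 22 and 23 h very little was called. Limma found 2 genes higher (0.0126%) and 2 lower (0.0126%), and 9 and 34 passed a log2 difference of 1 with an unadjusted p under 0.05. EdgeR on recovered reads called 2 higher and 3 lower. The 4 genes, 3 of them named after their values were seen, were Apol8 and Hist1h2ae, higher, and Mmp13 and Serpinb2, lower. Apol8 had means of 2.53 and 10.7 and Hist1h2ae of 0.346 and 2.07, so both are low genes. Serpinb2 was 348 ± 117 (SD, n = 10) at 19 to 23 h and 137 ± 35.7 (SD, n = 6) at 25 to 27 h. The list medians against 19 to 23 h lay between -0.29 and 0.09.

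**Figure D5:**
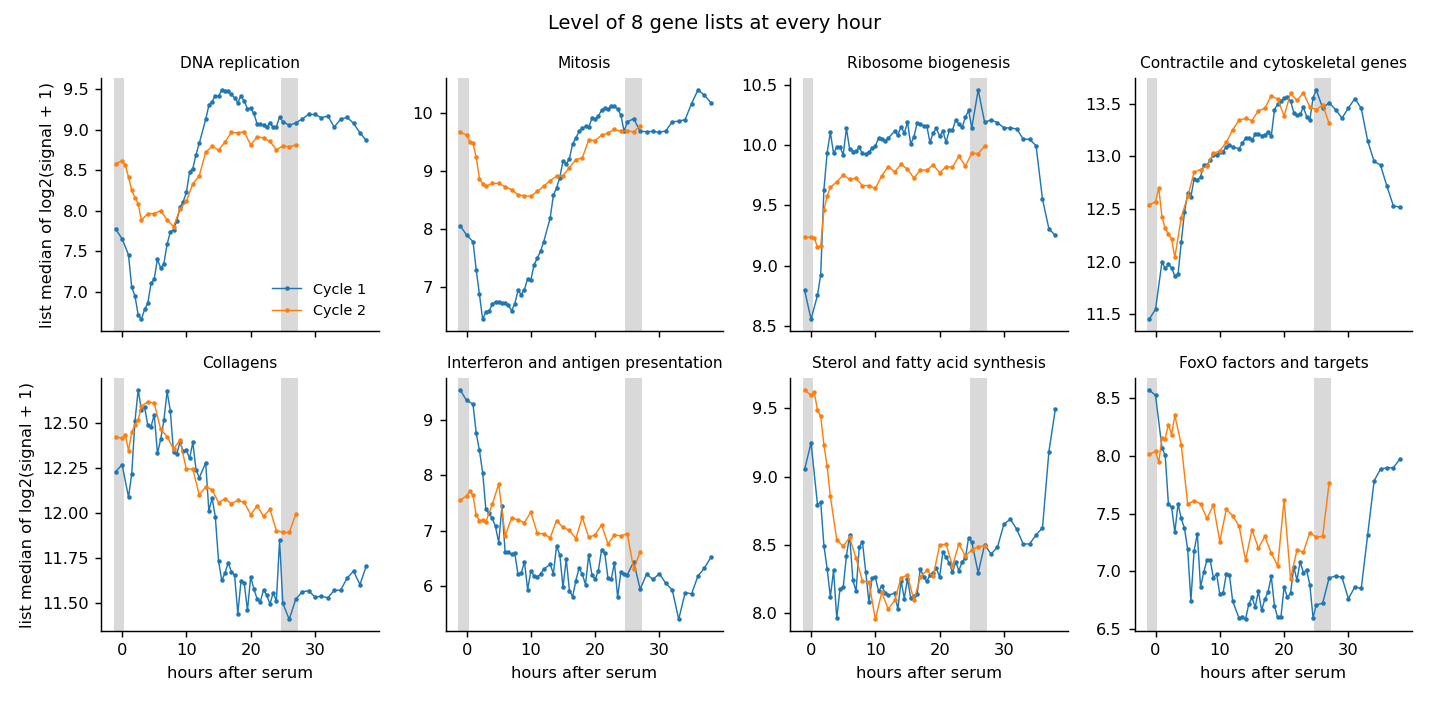
The median of log2(signal + 1) over the members of 8 lists is drawn at every hour after serum, blue for Cycle 1 and orange for Cycle 2, with grey bands over the starved hours and over 25 to 27 h, and each panel has its own y axis. Mitosis and DNA replication start higher in Cycle 2 than in Cycle 1 and fall in both before they rise, while interferon and antigen presentation starts near 9.5 in Cycle 1 and falls below 6.5.

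The cells carried the markers of fibroblasts at high levels. The summed signal of 14 fibroblast markers was 410470 to 576280 when starved and 211214 to 224000 later, 6 of them fell, among them Dcn by 2.80, and S100a4 rose by 2.34. Markers of other cell types had lower sums, but signal is not divided by gene length and the lists differ in genes and size. The sums thus do not measure the share of a cell type. The 10 leukocyte markers summed to 1351 to 3924 when starved and 708 to 2670 later, with 3 called lower and Cycle 2 at means of 3897 and 2545 against 1391 and 749 in Cycle 1. With TMM rescaling 0 of these were called by limma, and 8 were lower at an unadjusted p under 0.05. Endothelial markers summed to 296 to 392 when starved and 127 to 172 later (6 of 10 lower). Epithelial markers summed to 210.3 to 461 when starved and 229 to 621 later (6 lower and 1 higher). Muscle markers summed to 1785 to 2193 when starved and 1264 to 1937 later (5 of 9 lower). Neural markers summed to 471 to 643 when starved and 308 to 585 later (3 of 10 lower). Of all genes 18.8% were called lower. Means were under 10 for 4 endothelial, 3 epithelial, 3 muscle and 3 neural markers. With a mean of at least 10 required, 3 endothelial, 4 epithelial, 3 muscle and 2 neural markers were called lower.

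No marker was at 0 in all 10 libraries. Those that fell included the endothelial cadherin Cdh5 by 3.52 and receptor kinase Tek by 3.05, the epithelial cadherin Cdh1 by 2.66, the embryonic myosin Myh3 by 3.21 and the glial filament Gfap by 2.75. The keratin Krt19 rose by 2.07. Most called markers of other cell types fell, as most called matrix, interferon and chemokine genes did, and their part in those results was not tested.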

How the data were processed

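PolyA RNA of each time point was sequenced as stranded libraries with single-end 50 bp reads. According to the submitters' processing notes and the methods, the authors called bases with CASAVA, aligned reads to mm9 with STAR and counted reads in exons with HOMER on both strands, without stated versions, and deposited 1 normalized signal per gene and library, scaled to 10000000 reads. The table has 96 sample columns, of which 95 matched a label and 1 was not used. No column holds a comparison by the authors.

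Values were taken as log2(signal + 1) over all 15895 genes and tested with limma 3.58.1 in R 4.3.3, with each Cycle as a block. The study divides each sample by the mean of the -1 and 0 h samples, and taking that mean within each Cycle was a choice made here. A call needed a log2 difference above 1 in size and a p under 0.05 after Benjamini-Hochberg adjustment over all genes. Deviations from the group mean correlated between libraries of the same Cycle at 0.144 to 0.629, and between Cycles at -0.895 to -0.439. Dividing by the smallest step of a column gave whole reads for 94.7 to 95.7% of the low positive values (tolerance 0.1). Larger values were not checked in this way. All values were rounded to whole reads, and edgeR 4.0.16 on those reads called 1086 genes higher and 2979 lower. The total reads are known only through that step.

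On simulated data of the starved comparison, with 15895 genes, 99 of 100 genes changed 3-fold and 100 of 100 changed 6-fold were recovered, and 7 unchanged genes were called. Gene positions are from the NCBIM37 annotation, with 160 of 161 named genes matched. Genes were named by rule: the 12 largest rises and falls with a mean of at least 50 and full separation within each Cycle, up to 4 called members of each list and any called against its median, 14 cell cycle genes, the 5 largest differences between Cycles and the 5 largest changes in each direction of the other comparisons. The comparison, the named genes and the 30 lists were chosen with earlier results of these data known. Alternatives were other pseudocounts, a mean of at least 10, TMM and median ratio rescaling, limma with trend and robust settings, no block, 1 difference per Cycle, each Cycle alone and each library left out. Results of 4 of the named genes are not reported here.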

Additional observations from a re-analysis of the deposited data

Results flagged for a closer look

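The change from starved to 25 to 27 h differed between the Cycles in 1804 of 15895 genes by the interaction test in limma, and in 81 of the 157 named genes described. In 51 of the 81 the log2 difference was higher in Cycle 1. The difference of Cycle 1 minus Cycle 2 was, among genes of the largest rises, replication, nucleotides, mitosis and G1, U90926 4.46, Lce1g 1.88, Cck 3.79, Coch 1.62, Mylk2 2.28, Sprr2k 3.76, Rassf6 2.36, Siglecg 2.34, Cdc6 2.19, Mcm10 1.98, Cdt1 1.28, Chaf1a 1.80, Rrm2 2.40, Shmt1 1.44, Tk1 2.15, Umps 1.32, Birc5 2.46, Cdc20 2.23, Ube2c 2.12, Aurka 2.07, Mybl2 2.36, E2f7 1.60, Ccnd1 1.83, Ccne1 1.57, Grwd1 1.53. Among the other genes with a higher value in Cycle 1 it was Nhp2 1.48, Rrp9 1.35, Nop2 1.21, Rpl27 1.30, Pdk1 1.06, Bnip3 2.18, Eno1 2.28, Pkm 1.77, Hspd1 1.32, Cct7 1.01, Tnc 1.12, Cd44 1.43, Plaur 1.76, Timp1 2.25, Ankrd1 2.32, Cnn1 1.29, Fosl1 3.30, Gtse1 1.79, S100a4 1.36, Cldn4 1.18, Mki67 1.16, Top2a 1.73, Ccnb1 1.81, Ccna2 1.70, E2f1 1.09, Foxm1 1.39. In 30 genes the value was lower in Cycle 1, with Agtr2 -2.55, Il33 -1.72, Kera -2.53, Steap4 -2.80, Cdh8 -2.17, Angptl1 -2.37, Gm4951 -4.39, Cdkn1c -1.50, Gas2 -1.06, Txnip -1.95, Ctso -1.72, Ctsf -1.28, Col14a1 -1.23, Col3a1 -1.13, Col11a1 -1.01, Ogn -1.91, Aspn -2.09, Lum -1.92, Igfbp5 -2.70, Igf1 -1.53, Gbp6 -4.12, Mx2 -5.00, Ifi44 -4.65, Ifit1 -4.82, Trp53inp1 -2.21, Sesn1 -1.39, Dcn -1.38, Ckm -2.58, Dcx -2.91, Ddx60 -5.36. Only 2 Cycles exist, so the spread between Cycles of one kind is not known, and starved levels of the Cycles differed for many of these genes as described above.

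A single library lay far from the rest of its group, by Dixon's ratio, in 18 of 314 tests of the named genes, and chance flags about 1 in 20 groups. Of the 18, 10 were Cycle 2 at 27 h. Highest of the 25 to 27 h libraries at Cycle 1, 26 h, was the signal of Lce1g (222), Ddit3 (525), Top2a (4475). Highest of the 25 to 27 h libraries at Cycle 1, 27 h, was the signal of Kera (8.04). Highest of the 25 to 27 h libraries at Cycle 2, 27 h, was the signal of Gas1 (696), Txnip (2006), Fbxo32 (458), Trp53inp1 (828), Sesn1 (129), Tie1 (2.94), Cldn5 (0.979), Cdkn1b (718). Lowest of the starved libraries at Cycle 1, 0 h, was the signal of Fbxo32 (82.1). Highest of the 25 to 27 h libraries at Cycle 1, 25 h, was the signal of Rpl27 (70.2), Rps28 (17.3). Highest of the starved libraries at Cycle 2, -1 h, was the signal of Rpl38 (7.31). Lowest of the 25 to 27 h libraries at Cycle 2, 27 h, was the signal of Hbegf (461), Il11 (109).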

How the results depend on the processing

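Against starved cells 1034 genes were higher and 2987 lower. With 1 difference per Cycle the counts were 87 and 483, of which 567 genes of 570 were also called in the reported fit. In that setting limma called 0 genes of the G1, chaperone, amino acid, p53 and leukocyte lists, while 4 G1 and 7 chaperone genes were higher, 2 amino acid genes higher and 3 lower, 4 p53 targets higher and 3 lower, and 6 leukocyte markers lower at an unadjusted p under 0.05. Cycle 1 alone gave 1789 higher genes, and Cycle 2 alone gave 469 higher and 1611 lower. Without the replicate block the counts were 1001 and 2812, and the pairing by Cycle thus moved neither by over 1.5 times. Leaving out 1 library gave 992 to 1079 higher and 2859 to 2980 lower genes, and 1227 to 1950 genes whose change differs between Cycles. A pair of alternatives was chosen after seeing the data. With starved cells at -1 h only, 973 genes were higher, 2717 lower and 654 differed between Cycles, against 1804. Without the 2 libraries of lowest depth, 1042 were higher and 2788 lower.

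Against 1 to 3 h, pseudocount 5 gave 1649 lower genes and Cycle 2 alone 945 higher ones. Against 19 to 23 h the 2 higher and 2 lower genes changed with nearly any setting. Pseudocount 0.5 gave 1 higher and 1 lower, pseudocount 5 gave 1 higher, a mean of at least 10 gave 0 higher, TMM 1 lower, and median ratio 1 higher and 0 lower. Limma with trend and robust settings gave 7 lower. No block and 1 difference per Cycle gave 0 and 0, Cycle 1 alone 1 and 0, Cycle 2 alone 0 lower, and leaving out 1 library 0 to 1 higher and 0 to 4 lower. The cause of these changes was not tested.

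Of the 161 named genes, 0 changed sign under a setting while called there or in the reported fit. Genes called in neither were not counted, and Mki67, which was 1 of them, changed sign in Cycle 2 alone. A call was lost under at least 1 setting by 100 genes. Of these, 15 lost it outside the settings that use a single Cycle or 1 difference per Cycle. The depth of 5680742 to 13072794 reads limits genes with means of a few reads, and 2 Cycles limit every p-value.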
